A study of Mus musculus with 24 samples.

Results

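The surfactant and lamellar body genes described here are 10 genes of the alveolar type 2 cell, namely Sftpc, Sftpb, Sftpa1, Sftpd, Abca3, Lpcat1, Slc34a2, Napsa, Cxcl15 and Muc1. They were chosen by name, with earlier results of these data known, and all probe sets that the platform annotation gives to a member gene alone were kept. This gave 20 of the 45037 probe sets tested, for 10 of 18193 genes. Abca3 had 3 probe sets, Lpcat1 had 5, Sftpc, Sftpa1, Napsa and Cxcl15 had 2 each, and Sftpb, Sftpd, Slc34a2 and Muc1 had 1 each.

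RNA from mouse lung was measured on 24 Affymetrix arrays. The 14 tumour arrays came from visible nodules dissected from bitransgenic mice that had eaten a doxycycline diet for 3 to 6 months, and doxycycline switches on the mutant epidermal growth factor receptor (EGFR) transgene in such mice. There were 4 L858R tumours, from mice labelled C/L858R with the strain FVB mixed, 5 L858R+T790M tumours, labelled C/L+T with the strain FVB, and 5 T790M tumours, labelled C/T790M with the strain FVB. L858R activates the EGFR kinase, and T790M is best known as the change that makes tumours resistant to kinase inhibitors. The 10 normal lungs came from littermates without a transgene or with only 1 transgene, which also received doxycycline. Of these, 5 carried the strain label FVB (FVB normals) and 5 carried FVB mixed (mixed-strain normals). The labels do not spell out the driver written as C, nor do they give age, sex or the individual mouse. They also leave unstated whether every array stands for its own mouse, so each p-value reflects only the spread among the samples at hand, which may be partly technical.

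Pulmonary surfactant is a film of phospholipid and protein that lowers surface tension in the air spaces. Alveolar type 2 cells make its lipids, load them with the hydrophobic proteins SP-B and SP-C into lamellar bodies, which are lysosome-related organelles, and secrete them, while the collectins SP-A and SP-D bind microbes and lipids in the air space. The factor NKX2-1 is known to drive several surfactant genes, together with C/EBP and FOXA factors.

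Promoter windows are shown for the 2 genes among those matched in which letters of an NKX2-1-type site were found. RefSeq promoter sequences (GRCm38.p6) were matched for 7 of the 10 genes, all but Sftpc, Sftpd and Napsa. The letters searched were CTCAAG and CAAGTG, on both strands of the 250 bases before the start site of the promoter entry. The capitals below mark the matches. The Sftpb window lies at chr6:72304360-72304609 on the plus strand, and the Sftpa1 window at chr14:41131538-41131787 on the plus strand.
Sftpb: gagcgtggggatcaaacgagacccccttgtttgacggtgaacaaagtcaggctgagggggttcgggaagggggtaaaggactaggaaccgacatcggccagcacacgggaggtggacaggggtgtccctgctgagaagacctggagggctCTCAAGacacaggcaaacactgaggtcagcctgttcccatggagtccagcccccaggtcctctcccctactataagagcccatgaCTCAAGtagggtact
Sftpa1: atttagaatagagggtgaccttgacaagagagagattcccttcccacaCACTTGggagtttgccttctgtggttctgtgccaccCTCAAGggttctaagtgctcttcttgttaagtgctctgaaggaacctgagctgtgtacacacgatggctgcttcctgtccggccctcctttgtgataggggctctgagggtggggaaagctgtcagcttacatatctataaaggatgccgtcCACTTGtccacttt

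The Sftpb window held CTCAAG 100 and 15 bases before the start. The Sftpa1 window held CTCAAG 166 bases before the start, and CAAGTG on the minus strand 202 and 14 bases before it. Such letters are common, since 22.6% of the 32841 RefSeq promoter windows of this length held at least 1 of the motifs. The windows of Abca3, Lpcat1, Slc34a2, Cxcl15 and Muc1 held neither. The Abca3 window, chr17:24351773-24352022, runs past the start of the gene's locus at 24351921, so part of it lies inside the gene. The palindrome-like C/EBP letters TTGCNNAA, found in 9.57% of all windows, occurred in the Slc34a2 window 48 bases before the start, and the FOXA letters TGTTTAC, found in 3.17%, in none of the 7. A match describes letters only, and binding was not measured.

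Across the 3 tumour groups most of the surfactant genes stood higher than in normal lung, by less than 3-fold, while Sftpc on its bright probe set did not pass the test in any of them. Values are log2 expression, so a difference of 1 is a doubling, and a probe set was called where limma's two-sided p, adjusted by Benjamini-Hochberg over all probe sets, was under 0.05. In L858R tumours against mixed-strain normals 17 of the 20 probe sets were called higher and 1 lower, beside 20.3% higher and 17% lower among all probe sets. In L858R+T790M tumours against FVB normals 17 were called higher and 0 lower, beside 16.5% and 14.2%. In T790M tumours against FVB normals 15 were called higher and 0 lower, beside 18.5% and 16.3%. The latter comparisons share their normals and are not independent of each other.

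The median difference over the 20 probe sets was 0.77 in L858R, 0.65 in L858R+T790M and 0.60 in T790M tumours, where the medians over all probe sets were 0.04, 0.02 and -0.01. The arrays of tumours and normals did not overlap, with tumours higher, for 16, 14 and 10 probe sets in that order, beside 16.7%, 13.6% and 14.1% of all probe sets. Bright probe sets as a class were called higher more often than others. Among the brightest 2% of all probe sets 35.8%, 31.9% and 40.0% were called higher, with median differences of 0.12, 0.09 and 0.12. In whole-tissue RNA a change in the number of alveolar type 2 cells and a change in RNA per cell cannot be told apart.

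**Figure D1:**
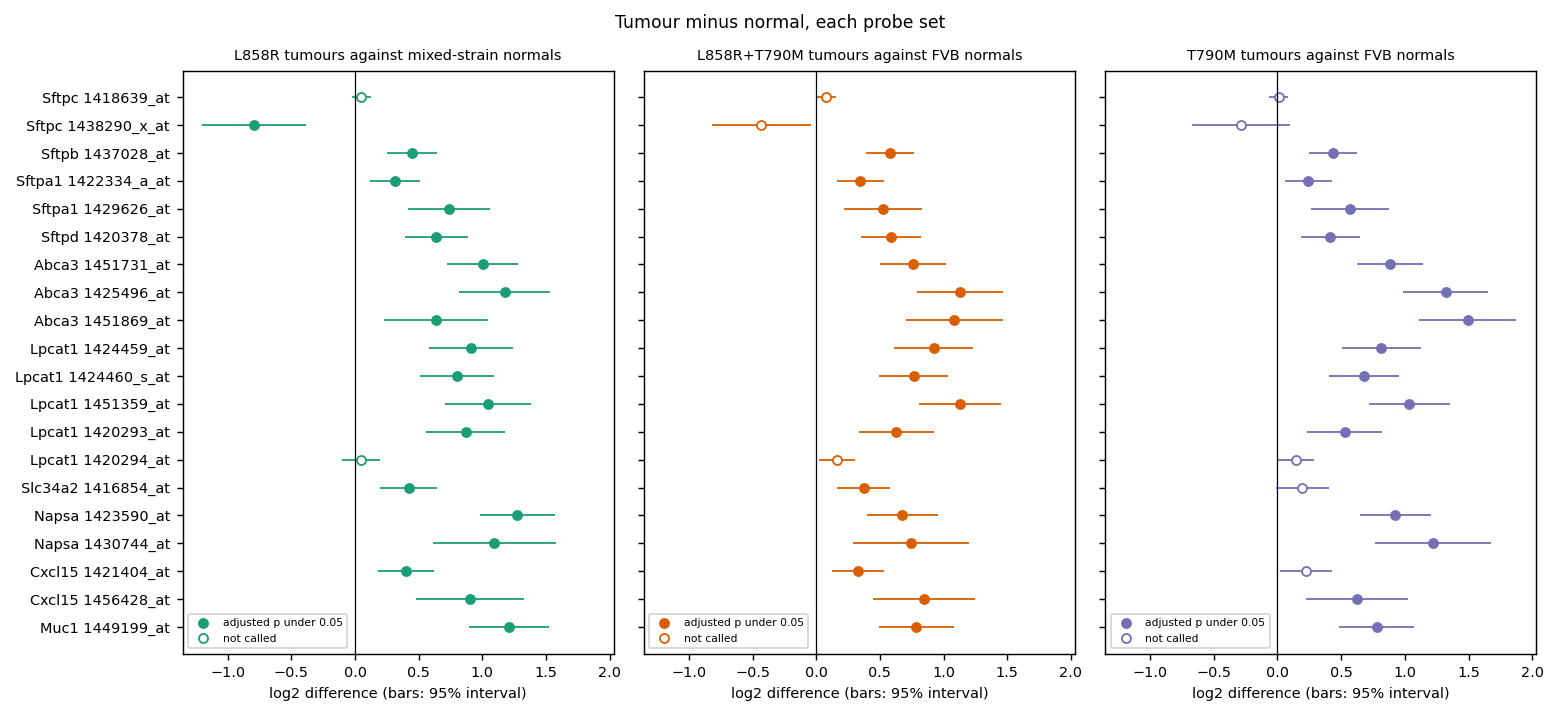
Log2 difference between tumours and the normals of the same strain label (horizontal axis) for each of the 20 probe sets (rows), with 95% intervals, in 3 panels for L858R, L858R+T790M and T790M tumours. Filled points passed an adjusted p under 0.05; 17, 17 and 15 filled points lie to the right of 0, and 1 lies to the left, Sftpc 1438290_x_at in L858R tumours.

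The surfactant proteins themselves came out in different ways. Sftpc encodes SP-C, the small hydrophobic protein whose transcript is a standard marker of alveolar type 2 cells. Probe set 1418639_at read 14.78, 14.78, 14.75, 14.77 and 14.79 in the FVB normals and 14.66, 14.73, 14.68, 14.73 and 14.75 in the mixed-strain normals. It read 14.78, 14.70, 14.76 and 14.80 in L858R tumours, 14.86, 14.85, 14.90, 14.86 and 14.80 in L858R+T790M tumours, and 14.75, 14.78, 14.86, 14.72 and 14.80 in T790M tumours. The L858R and T790M arrays overlapped their normals, whereas every L858R+T790M array lay above every FVB normal by a small margin. Its differences were 0.05 ± 0.04 (SE; adjusted p = 0.309), 0.08 ± 0.03 (adjusted p = 0.0888) and 0.01 ± 0.03 (adjusted p = 0.887). Centring each array on its median gave differences of 0.12 and 0.13 in L858R and L858R+T790M tumours, both called, so these misses depend on the scaling. The L858R+T790M difference was also called with array weights (0.09) and against all 10 normals (0.11).

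Sftpc 1418639_at was at the top of the measured scale. It held the highest value of the array in 19 of 24 arrays, and its whole range, from 14.66 to 14.90, spanned 0.24. The table's highest value of all was 14.9, and 31 probe sets had a mean of 14 or above, 6 of them member probe sets. The deposited values carry no mark of saturated probes, so whether this probe set could have read higher was not tested.

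The other Sftpc probe set, 1438290_x_at, was dim and moved the other way. Its suffix marks probes that may also bind other transcripts, and its values lay below the median of every array, which was 7.21 to 7.34. It read 5.87, 5.98, 5.64, 5.76 and 6.18 in the mixed-strain normals and 4.61, 4.86, 5.34 and 5.57 in L858R tumours, which were all lower. The difference there was -0.79 ± 0.20 (adjusted p = 0.00296). The FVB normals read 5.94, 5.66, 5.82, 5.80 and 5.96, the L858R+T790M tumours 5.13, 5.71, 5.31, 5.05 and 5.83, and the T790M tumours 5.28, 5.96, 5.21, 5.96 and 5.34. Both tumour groups overlapped the FVB normals, with differences of -0.43 ± 0.19 (adjusted p = 0.0852) and -0.29 ± 0.19 (adjusted p = 0.25). Neither miss was firm. The L858R+T790M difference was called with array weights (-0.53, adjusted p = 0.00366), in a fit to those groups alone (adjusted p = 0.0421), against all 10 normals (adjusted p = 0.026), without L858R+T790M replicate 5 (-0.54, adjusted p = 0.0348) and without T790M replicates 2 and 4 (adjusted p = 0.0458). The T790M difference was called with array weights (-0.45, adjusted p = 0.00978) and without T790M replicates 2 and 4 (-0.56, adjusted p = 0.0313). The pair of Sftpc probe sets therefore gave no common direction.

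Sftpb encodes SP-B, the hydrophobic protein needed to form lamellar bodies and the surface film. Its probe set 1437028_at read 13.73, 13.81, 13.90, 13.97 and 13.78 in the FVB normals and 13.94, 13.96, 13.90, 14.07 and 14.02 in the mixed-strain normals. Sftpb values were 14.32, 14.50, 14.43 and 14.45 in L858R tumours, 14.29, 14.73, 14.45, 14.33 and 14.28 in L858R+T790M tumours, and 14.33, 14.35, 14.47, 13.90 and 14.33 in T790M tumours. All tumour arrays lay above the normals of their strain except T790M replicate 4, which fell among the FVB normals. The rise was 0.45 ± 0.10 (1.36-fold, adjusted p = 0.000781) in L858R, 0.58 ± 0.09 (1.49-fold, adjusted p = 3.84e-05) in L858R+T790M and 0.44 ± 0.09 (1.35-fold, adjusted p = 0.000619) in T790M tumours.

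The collectin genes Sftpa1 and Sftpd, which encode SP-A and SP-D and lie near each other on chromosome 14, rose in all 3 tumour groups. Sftpd 1420378_at read 13.84, 13.84, 13.72, 13.82 and 13.60 in the FVB normals and 13.53, 13.42, 13.61, 13.64 and 13.67 in the mixed-strain normals. Sftpd values were 14.38, 13.82, 14.32 and 14.33 in L858R tumours, 14.38, 14.38, 14.36, 14.41 and 14.23 in L858R+T790M tumours, and 14.19, 14.36, 14.36, 13.67 and 14.31 in T790M tumours. L858R replicate 2 stood well below the other L858R tumours though above its normals, and T790M replicate 4 lay among the FVB normals. The differences were 0.64 ± 0.12 (adjusted p = 0.000206), 0.59 ± 0.11 (adjusted p = 0.000336) and 0.41 ± 0.11 (adjusted p = 0.00616).

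Sftpa1 was measured by 2 probe sets that agreed in direction and differed in size. The brighter, 1422334_a_at, read 14.31, 14.32, 14.27, 14.38 and 14.21 in the FVB normals and 14.19, 14.10, 14.27, 14.20 and 14.28 in the mixed-strain normals. It read 14.59, 14.24, 14.62 and 14.65 in L858R tumours, 14.67, 14.71, 14.67, 14.71 and 14.46 in L858R+T790M tumours, and 14.63, 14.52, 14.76, 14.16 and 14.63 in T790M tumours. As for Sftpd, L858R replicate 2 and T790M replicate 4 were the low arrays, the former inside the range of its normals and the latter below all FVB normals. The differences were 0.32 ± 0.09 (adjusted p = 0.0111), 0.35 ± 0.09 (adjusted p = 0.00475) and 0.24 ± 0.09 (adjusted p = 0.0393). The T790M call was lost after a further quantile normalization (0.19, adjusted p = 0.0942), in a fit to those groups alone (0.24, adjusted p = 0.0836), and without any 1 of FVB normals 1, 2, 3 and 5 or T790M replicates 1, 2, 3 and 5.

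Sftpa1 1429626_at, the dimmer probe set, had the larger differences, 0.74 ± 0.16 (adjusted p = 0.000676), 0.52 ± 0.15 (adjusted p = 0.00841) and 0.57 ± 0.15 (adjusted p = 0.00423). Its values were 12.70 to 12.97 in FVB normals, 12.32 to 12.80 in mixed-strain normals, 12.88 to 13.51 in L858R, 12.96 to 13.53 in L858R+T790M and 12.90 to 13.72 in T790M tumours. Over the 14 tumours, with group means subtracted, the probe sets followed each other (r = 0.951), and the dimmer spread 1.6 times as widely as the brighter. The same RNA on the same arrays thus gave smaller log2 steps on the brighter probe set.

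**Figure D2:**
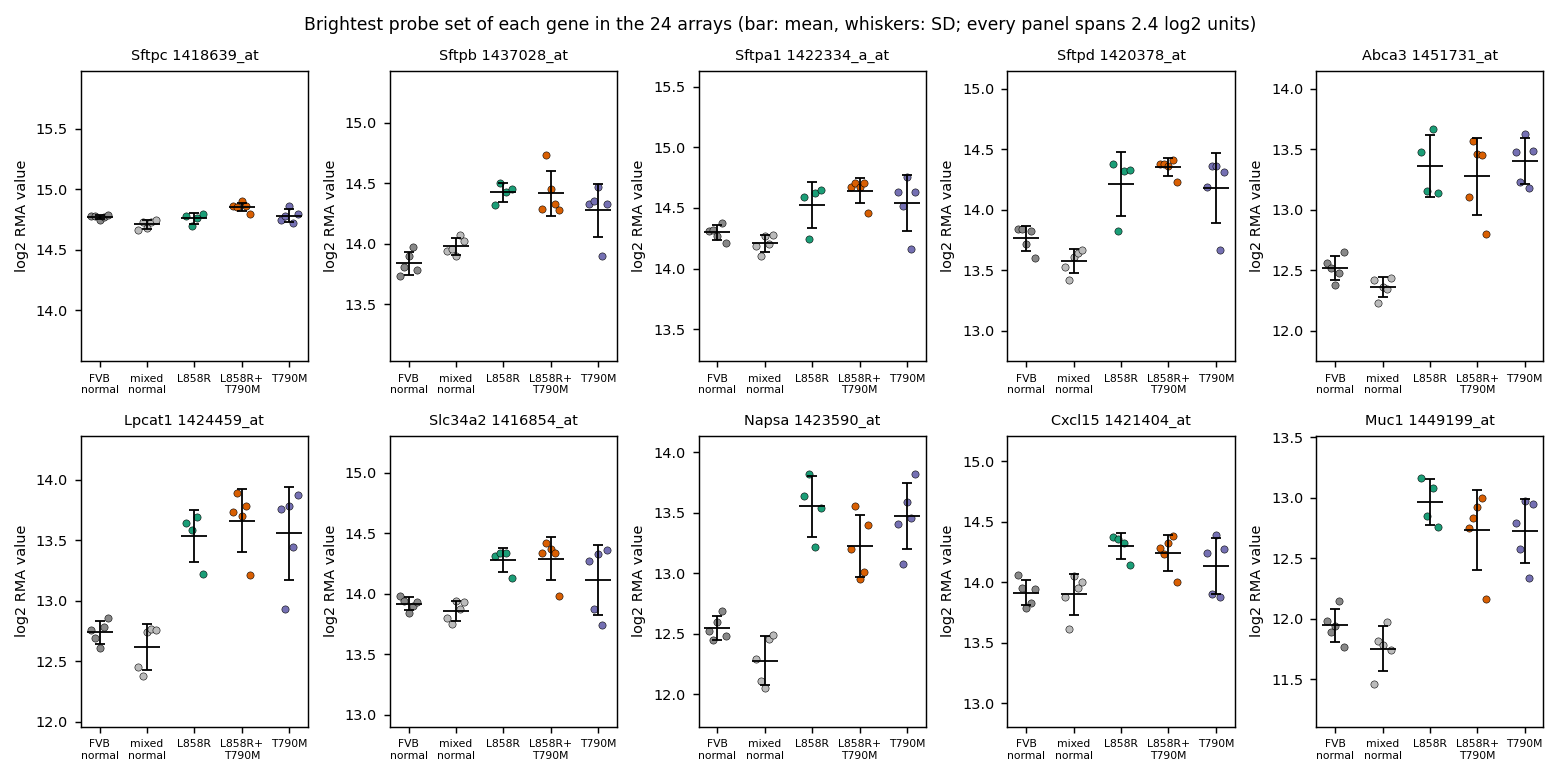
Log2 value (vertical axis, each panel spanning 2.4 log2 units) of the brightest probe set of each gene in the 24 arrays, by group, with the group mean and SD. The tumour points of Abca3, Napsa and Muc1 lie above the normals of both strain labels, while those of Sftpc 1418639_at lie within 14.70 to 14.90, beside normals at 14.66 to 14.79.

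Genes of lipid loading and remodelling also rose. Abca3, the transporter that moves phospholipid into lamellar bodies, was about 2-fold higher. Abca3 1451731_at read 12.56, 12.52, 12.38, 12.48 and 12.65 in the FVB normals and 12.42, 12.23, 12.36, 12.35 and 12.44 in the mixed-strain normals. It read 13.48, 13.16, 13.67 and 13.14 in L858R tumours, 13.11, 13.57, 13.46, 13.45 and 12.80 in L858R+T790M tumours, and 13.48, 13.23, 13.63, 13.18 and 13.49 in T790M tumours. No tumour array overlapped any normal, and L858R+T790M replicate 5 was the lowest tumour.

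The rise on Abca3 1451731_at was 1.00 ± 0.13 (2-fold, adjusted p = 4.36e-06) in L858R, 0.76 ± 0.13 (1.69-fold, adjusted p = 7.36e-05) in L858R+T790M and 0.88 ± 0.13 (1.85-fold, adjusted p = 1.44e-05) in T790M tumours. The dimmer 1425496_at gave 1.17 ± 0.17, 1.13 ± 0.16 and 1.32 ± 0.16, with normals at 10.56 to 10.89 and tumours at 11.27 to 12.45. The dimmest, 1451869_at, read 7.83 to 8.48 in normals and 8.53 to 10.01 in tumours. It rose by 0.64 ± 0.20 (adjusted p = 0.0132), 1.08 ± 0.18 (adjusted p = 0.000101) and 1.49 ± 0.18 (2.82-fold, adjusted p = 3.09e-06). The probe sets ordered the groups differently, the largest difference being in L858R tumours on 1451731_at and in T790M tumours on the dimmer ones. The L858R call of 1451869_at was lost without L858R replicate 3 (0.49, adjusted p = 0.0679).

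Lpcat1, the acyltransferase that remodels phosphatidylcholine into the dipalmitoyl form of surfactant, was called higher in all 3 groups on 4 of its 5 probe sets. Lpcat1 1424459_at read 12.76, 12.69, 12.61, 12.78 and 12.86 in the FVB normals and 12.45, 12.38, 12.74, 12.77 and 12.76 in the mixed-strain normals. It read 13.64, 13.58, 13.69 and 13.22 in L858R tumours, 13.73, 13.89, 13.70, 13.78 and 13.21 in L858R+T790M tumours, and 13.76, 12.93, 13.78, 13.44 and 13.87 in T790M tumours. All tumours lay above all normals, with T790M replicate 2 nearest to them. The differences were 0.91 ± 0.16 (1.88-fold, adjusted p = 9.86e-05), 0.92 ± 0.15 (1.89-fold, adjusted p = 6.11e-05) and 0.82 ± 0.15 (1.76-fold, adjusted p = 0.000213).

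Lpcat1 1424460_s_at and 1451359_at tracked that probe set over the 14 tumours with r = 0.991 and 0.983. Lpcat1 1451359_at gave 1.04 ± 0.16, 1.13 ± 0.15 and 1.04 ± 0.15, and the dim 1420293_at gave 0.87 ± 0.15, 0.63 ± 0.14 and 0.53 ± 0.14. Lpcat1 1420294_at was not called, at 0.04 ± 0.07 (adjusted p = 0.673), 0.16 ± 0.07 (adjusted p = 0.0721) and 0.14 ± 0.07 (adjusted p = 0.112). The L858R+T790M difference was called under 6 alternatives, among them centring on array medians (0.21, adjusted p = 0.0256) and leaving out FVB normal 1 (0.21, adjusted p = 0.0241), L858R replicate 1 or L858R+T790M replicate 1. The T790M difference was called under 5, among them renewed quantile normalization (0.19, adjusted p = 0.0271) and leaving out FVB normal 1. The group means of Lpcat1 1420294_at were between 5.27 and 5.48, below every array's median, and its correlation with 1424459_at was 0.199.

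Slc34a2, the type 2 cell's sodium-phosphate carrier, which takes up phosphate released from surfactant lipid, was called higher in L858R and L858R+T790M tumours. Slc34a2 1416854_at read 13.98, 13.94, 13.84, 13.90 and 13.93 in the FVB normals and 13.80, 13.75, 13.94, 13.87 and 13.93 in the mixed-strain normals. It read 14.31, 14.34, 14.34 and 14.13 in L858R tumours, 14.34, 14.42, 14.37, 14.34 and 13.98 in L858R+T790M tumours, and 14.27, 13.87, 14.33, 13.74 and 14.36 in T790M tumours. T790M replicates 2 and 4 and L858R+T790M replicate 5 fell to the level of the normals, and the other tumours stood above them. The differences were 0.42 ± 0.11 (1.34-fold, adjusted p = 0.00353), 0.37 ± 0.10 (1.29-fold, adjusted p = 0.00708) and 0.20 ± 0.10 (adjusted p = 0.143). The T790M value was 0.29 (adjusted p = 0.0185) without replicate 4 and 0.40 (adjusted p = 0.000726) without replicates 2 and 4, and it was also called with array weights (0.36) and against all 10 normals (0.23).

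Napsa encodes napsin A, the aspartic protease that helps to process pro-SP-B and pro-SP-C. Napsa 1423590_at read 12.52, 12.45, 12.60, 12.69 and 12.48 in the FVB normals and 12.29, 12.11, 12.05, 12.46 and 12.49 in the mixed-strain normals. It read 13.64, 13.82, 13.22 and 13.54 in L858R tumours, 13.20, 13.56, 12.95, 13.01 and 13.40 in L858R+T790M tumours, and 13.41, 13.08, 13.59, 13.46 and 13.82 in T790M tumours. No tumour array reached down to the normals, and T790M replicate 4 was not low for this gene. The differences were 1.27 ± 0.14 (2.42-fold, adjusted p = 5.5e-07), 0.68 ± 0.13 (1.6-fold, adjusted p = 0.000501) and 0.92 ± 0.13 (1.9-fold, adjusted p = 1.9e-05). Napsa 1430744_at gave 1.09 ± 0.23 (adjusted p = 0.000758), 0.75 ± 0.22 (adjusted p = 0.0119) and 1.22 ± 0.22 (adjusted p = 0.000169), with 2 L858R+T790M arrays, replicates 3 and 4, inside the range of the FVB normals.

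The remaining members are secreted or surface proteins of the same cells. Cxcl15, the chemokine lungkine, was measured by 2 bright probe sets. Cxcl15 1421404_at read 14.06, 13.95, 13.79, 13.83 and 13.94 in the FVB normals and 13.88, 13.61, 14.05, 13.95 and 14 in the mixed-strain normals. It read 14.37, 14.36, 14.32 and 14.14 in L858R tumours, 14.28, 14.23, 14.32, 14.38 and 14 in L858R+T790M tumours, and 14.24, 13.90, 14.39, 13.88 and 14.27 in T790M tumours. The low tumours were those that were low for Slc34a2.

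The differences for Cxcl15 1421404_at were 0.40 ± 0.11 (adjusted p = 0.00456), 0.33 ± 0.10 (adjusted p = 0.0142) and 0.22 ± 0.10 (adjusted p = 0.0884). The T790M value was called without replicate 2 (0.28, adjusted p = 0.0363) or without replicate 4 (0.29, adjusted p = 0.0307), and also with centring (0.27), array weights (0.35) and all 10 normals (0.23). Cxcl15 1456428_at, the dimmer, gave larger differences of 0.90 ± 0.21 (adjusted p = 0.00133), 0.85 ± 0.19 (adjusted p = 0.00174) and 0.63 ± 0.19 (adjusted p = 0.0146). Between the tumours it spread 1.98 times as widely as the brighter probe set, with r = 0.954. Whether Cxcl15 was called in T790M tumours thus depended on the probe set.

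Muc1 encodes a membrane mucin of the apical surface. Muc1 1449199_at read 11.98, 11.89, 11.94, 12.15 and 11.77 in the FVB normals and 11.46, 11.82, 11.78, 11.97 and 11.74 in the mixed-strain normals. It read 13.16, 12.85, 13.08 and 12.76 in L858R tumours, 12.75, 12.83, 12.92, 13 and 12.16 in L858R+T790M tumours, and 12.79, 12.58, 12.97, 12.34 and 12.95 in T790M tumours. Each tumour stood above all normals, L858R+T790M replicate 5 by the least. The differences were 1.21 ± 0.15 (2.31-fold, adjusted p = 1.97e-06), 0.79 ± 0.14 (1.72-fold, adjusted p = 0.000192) and 0.78 ± 0.14 (1.72-fold, adjusted p = 0.000197).

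The size of the difference went with the level of the probe set. For the 7 probe sets whose mean in the normals was 13 or above, the median difference was 0.42 in L858R, 0.37 in L858R+T790M and 0.24 in T790M tumours. For the 8 probe sets between 10 and 13 the medians were 1.02, 0.78 and 0.85, and all 8 were called higher in each comparison. For the 5 under 10, which include the discordant Sftpc and Lpcat1 probe sets, the medians were 0.64, 0.63 and 0.53. The smaller differences of Sftpc, Sftpa1, Slc34a2 and Cxcl15 were on probe sets near the upper end of the scale, and the part of the scale's limit in them was not tested.

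**Figure D3:**
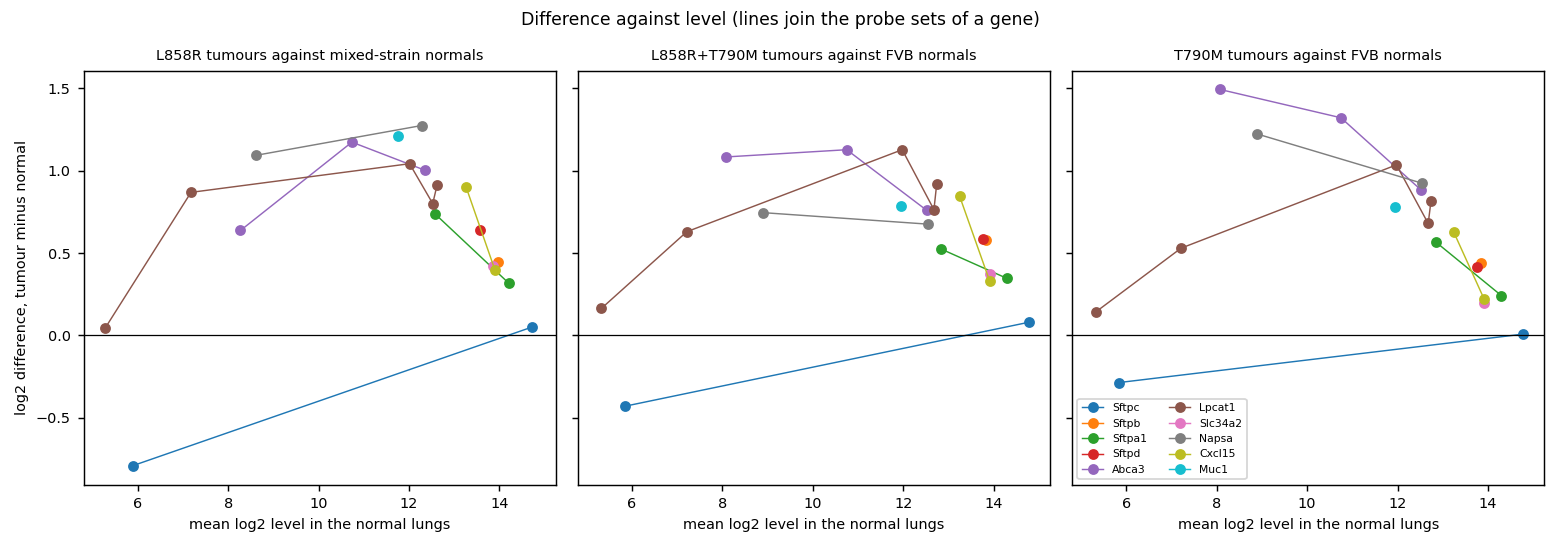
Log2 difference between tumours and normals (vertical axis) against the mean log2 level in the normals (horizontal axis), 1 point for each of the 20 probe sets and 1 panel for each comparison; lines join probe sets of a gene. Between levels of 10 and 13 the points lie between 0.52 and 1.32, and near the top of the scale they come down toward Sftpc 1418639_at at 0.05, 0.08 and 0.01.

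The member genes did not fall together in the weaker tumours. The number of member probe sets above the highest normal of the same strain label was 18, 16, 19 and 19 of 20 in the L858R arrays, 18, 19, 17, 18 and 15 in the L858R+T790M arrays, and 17, 14, 18, 10 and 19 in the T790M arrays. These counts compare the arrays with each other, and no share of all probe sets is set beside them. T790M replicate 4 was lowest, with a median difference from the FVB mean of 0.26, then L858R+T790M replicate 5 (0.33) and T790M replicate 2 (0.36). In T790M replicate 4 Sftpb, Sftpa1, Sftpd, Sftpc, Slc34a2 and Cxcl15 were at or below normal values, while Abca3 read 13.18 and Napsa 13.46, both above every normal. In T790M replicate 2 Slc34a2 and Cxcl15 were at normal values, while Sftpa1 and Sftpd were not. Without T790M replicates 2 and 4, a choice made after their values were seen, 17 probe sets were called higher in T790M tumours and 1 lower, Sftpc 1438290_x_at. No share of all probe sets is given for that fit.

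**Figure D4:**
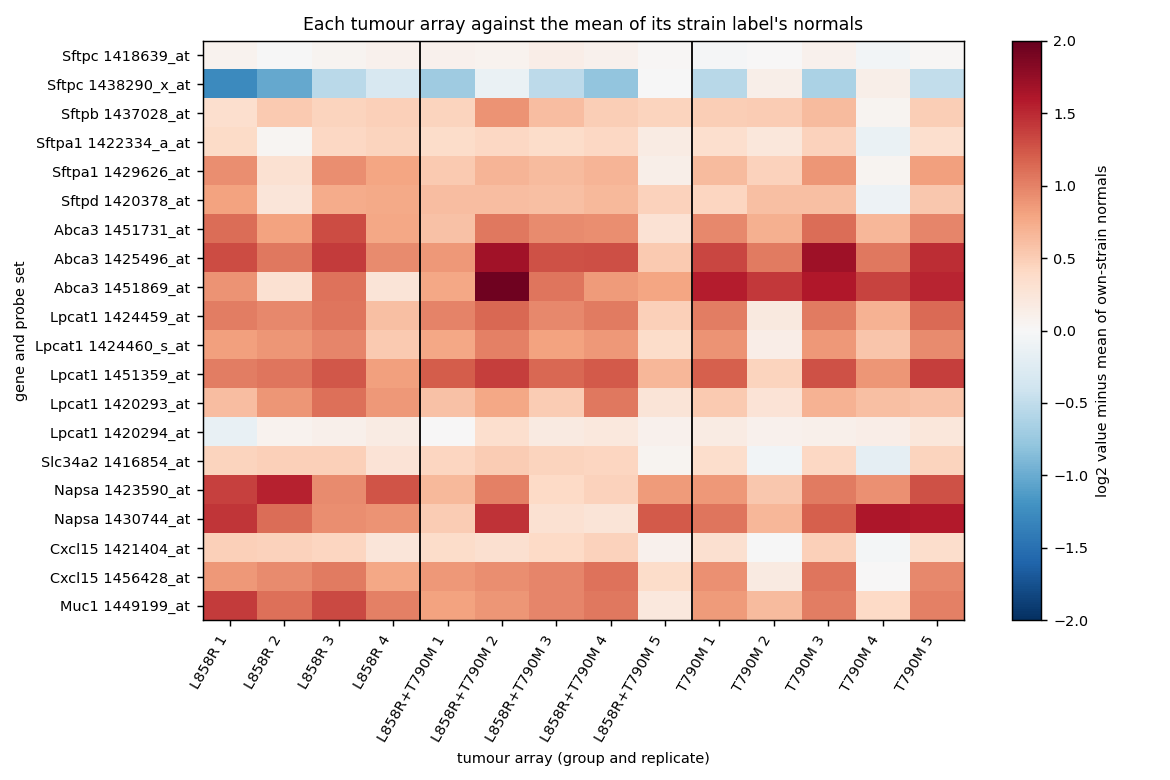
Log2 value of each of the 20 probe sets (rows) in each of the 14 tumour arrays (columns) minus the mean of the normals of the same strain label, on a colour scale from -2 (blue) to 2 (red). T790M replicate 4 shows 10 probe sets above the highest normal and T790M replicate 5 shows 19, and the Sftpc 1438290_x_at row is blue in the L858R columns.

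Over the 14 tumours, after group means were subtracted, 40 of the 45 pairs of member genes (brightest probe set each) correlated above 0, with a median r of 0.518, and 8 pairs had r of 0.8 or more. These arrays share their normalization, and the correlations are descriptions. Sftpa1 and Sftpd went together (r = 0.92), as did Cxcl15 and Slc34a2 (r = 0.935), and Lpcat1 with Slc34a2 (r = 0.855) and Cxcl15 (r = 0.843). Napsa stood apart, between -0.235 with Sftpd and 0.349 with Lpcat1.

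The genes whose pattern over these 14 arrays was most like the mean of the 10 members, among 9085 genes above the median level, were Ptprf (r = 0.946), Zdhhc3 (0.941), Anapc13 (0.928), Grk3 (0.927), Hacd3 (0.923), Fundc1 (0.919), Scaper (0.908) and Pafah2 (0.903). Ptprf, a receptor tyrosine phosphatase, rose in the 3 tumour groups by 0.77 ± 0.14, 0.69 ± 0.13 and 0.55 ± 0.13. Zdhhc3, a palmitoyltransferase, rose by 1.79 ± 0.31, 1.57 ± 0.30 and 1.24 ± 0.30. Anapc13, a subunit of the anaphase-promoting complex, was not called in any group, at 0.12, 0.04 and 0.01. Scaper was called lower in L858R tumours (-0.43 ± 0.11, adjusted p = 0.0042) and read -0.16 and -0.25 in the others. Grk3, Hacd3 and Pafah2 were called higher in each group, and Fundc1 in L858R tumours (0.36, adjusted p = 0.0448).

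Tumour genotypes were compared for the same probe sets. Between L858R+T790M and T790M tumours, which share the strain FVB, 0 of 20 probe sets were called, beside 1.15% of all probe sets, and 2 had an unadjusted p under 0.05. These were Abca3 1451869_at, at -0.41 ± 0.18 (adjusted p = 0.284), and Napsa 1430744_at, at -0.48 ± 0.22 (adjusted p = 0.296), both lower in L858R+T790M tumours. The 95% intervals of the 20 differences lay between -0.93 and 0.62. Without L858R+T790M replicate 2, which was the highest of its group for Abca3 1451869_at, that difference was -0.62 and was called (adjusted p = 0.0317).

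L858R tumours were compared with the other genotypes after subtracting the normals of each strain label. Against L858R+T790M tumours 0 of 20 were called, beside 0.171% of all, and 1 had an unadjusted p under 0.05, Napsa 1423590_at, at 0.60 ± 0.20 (95% interval 0.19 to 1.01, adjusted p = 0.247). Against T790M tumours 0 of 20 were called, beside 0.411%, and 1 had an unadjusted p under 0.05, Abca3 1451869_at, at -0.86 ± 0.27 (95% interval -1.41 to -0.30, adjusted p = 0.144). That difference passed without L858R+T790M replicate 2 (-0.86, adjusted p = 0.0435), which enters only the shared estimate of the spread. The intervals leave room for differences of up to 1.01 between L858R and L858R+T790M and of up to -1.41 between L858R and T790M tumours, so equal levels were not shown.

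The normal lungs of the 2 strain labels were also compared for these genes. None of the 20 probe sets was called, beside 2.48% of all, and 0 had an unadjusted p under 0.05. With so small a share called among all, 0 of 20 does not set these genes apart. The differences, mixed-strain minus FVB, ran from -0.27 to 0.20. Their 95% intervals lay between -0.73 and 0.58, so equal levels were not shown. With array weights 3 probe sets were called lower in the mixed-strain normals, Sftpd (-0.21), Napsa 1423590_at (-0.28) and Sftpa1 1429626_at (-0.29). The 2.48% belongs to the main fit, and the share of all probe sets called with array weights is not given.

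Other genes of surfactant metabolism were read from lists written by name, on the brightest probe set of each gene. Among all genes on that basis, 23.3%, 20.2% and 21.9% were called higher and 18.1%, 16.1% and 17.9% lower in L858R, L858R+T790M and T790M tumours, with median differences of 0.05, 0.03 and 0.00. Of 15 lipid synthesis genes 7, 8 and 7 were called higher and 1, 2 and 1 lower, with medians of 0.50, 0.26 and 0.28. Chka, the choline kinase that opens phosphatidylcholine synthesis, rose by 0.89, 0.94 and 0.89, and Fasn, fatty acid synthase, by 1.29, 0.82 and 0.87. Acsl4, which activates long-chain fatty acids, rose by 1.15, 0.84 and 1.13. Gpam, the mitochondrial glycerol-phosphate acyltransferase, was lower, at -1.30, -1.61 and -1.12.

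Of 11 lamellar body trafficking genes 6, 7 and 6 were called higher and 1, 0 and 1 lower, with medians of 0.40, 0.35 and 0.37. Lamp3 was left out because its probe set is annotated to a further gene. Ctsh, cathepsin H, a protease of SP-B and SP-C maturation, rose by 1.81, 1.40 and 1.01. Rab38, a small GTPase of lysosome-related organelles, rose by 1.42, 1.00 and 1.40, and Ap3b1, an adaptor subunit of the same route, by 0.47, 0.58 and 0.56. Stx2, a syntaxin, was lower in L858R (-0.61) and T790M (-0.68) tumours and was not called in L858R+T790M tumours (-0.40). Ctsh also differed between genotypes and strains. It was 0.39 higher in L858R+T790M than in T790M tumours (adjusted p = 0.0401) and lower in mixed-strain than in FVB normals (-0.55, adjusted p = 0.00828). After strain adjustment Ctsh was 0.80 higher in L858R than in T790M tumours (adjusted p = 0.0141). The means were 14.16 in L858R and 13.91 in T790M tumours, and 12.36 in mixed-strain and 12.90 in FVB normals. Much of the adjusted difference thus lay in the normals.

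Regulators known to act on surfactant genes were called higher for 5, 7 and 6 of 9 and lower for 1 in each group, with medians of 0.56, 0.63 and 0.76. Nkx2-1 rose by 0.94, 1.09 and 0.91, Cebpa by 1.56, 1.71 and 1.76, Foxa2 by 0.56, 0.66 and 0.76, and Etv5, an ETS factor of type 2 cells, by 0.79, 0.63 and 0.76. Nfib, a nuclear factor I gene, was lower, at -0.93, -0.63 and -0.54. Foxa1 was called higher in T790M tumours (0.58) and read 0.06 and -0.09 in the others. The direct difference of L858R+T790M from T790M tumours was -0.67 (adjusted p = 0.0278), and the strain-adjusted difference of L858R from T790M tumours, -0.53, was not called. Nkx2-1 was also 0.70 higher in mixed-strain than in FVB normals (adjusted p = 0.0151), where no surfactant member was called.

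Surfactant turnover genes, which act in macrophages as well as in type 2 cells, were called higher for 5, 2 and 2 of 7 and lower for 1 in each group. Their medians were 0.95, 0.27 and 0.00, so in T790M tumours the list stood at the median of all genes. The 2 of 7 lie near the 20.2% and 21.9% of all genes called higher. Prdx6 was listed but left out, since no probe set was annotated to it alone. Csf2rb, a receptor chain for GM-CSF, rose by 2.02, 1.22 and 1.17, and Pparg, a lipid-handling nuclear receptor, by 1.52, 1.28 and 0.74. Adgrf5, a receptor that restrains the surfactant pool, was lower, at -0.81, -0.89 and -0.80. Csf2ra, Spi1 and Lpl were called in L858R tumours, at 1.04, 0.93 and 0.95, and not in the other groups, and none of their differences between genotypes was called.

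**Figure D5:**
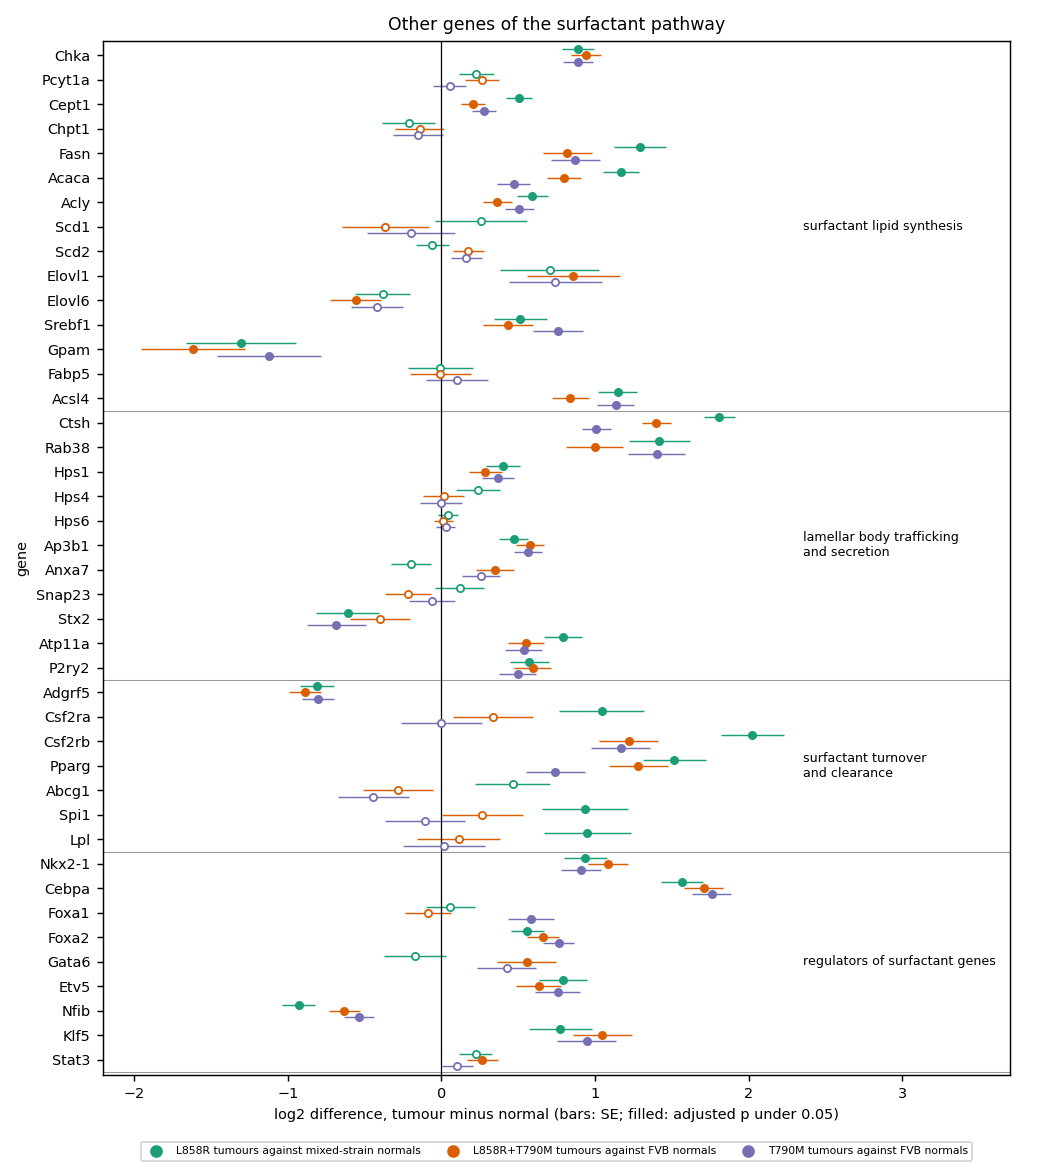
Log2 difference between tumours and normals (horizontal axis, bars show SE) for the other genes of surfactant metabolism (rows), grouped into lipid synthesis, trafficking, turnover and regulation, in L858R, L858R+T790M and T790M tumours; filled points passed an adjusted p under 0.05. Cebpa lies at 1.56, 1.71 and 1.76 and Gpam at -1.30, -1.61 and -1.12.

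Markers of cell types also changed, some lists higher and some lower, and their part in the member results was not tested. Other alveolar type 2 markers, among them Ctsh from the trafficking list, were called higher for 6, 4 and 5 of 8 and lower for 0. Their median differences were 1.32, 0.68 and 0.69. Their mean level ranged from 11.50 to 12.07 in normals of either strain label, 12.78 to 13.14 in L858R, 12.32 to 12.64 in L858R+T790M and 12.01 to 13.12 in T790M arrays, where replicate 4 was again the lowest. Egfl6 rose by 2.12, 1.83 and 1.93, whereas the group means of Lyz2 ran from 14.39 to 14.71 and it was not called in any of the 3 groups. General epithelial markers were called higher for 7, 10 and 8 of 10, with Epcam at 1.60, 1.35 and 1.54.

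Alveolar type 1 markers were called lower for 8, 6 and 9 of 10 and higher for 1, 1 and 0. Endothelial markers were called lower for 8, 8 and 7 of 8, with medians of -2.66, -2.39 and -2.35. Alveolar macrophage markers were called higher for 6, 1 and 0 of 7 and lower for 0, 0 and 1, the last being Krt79 in T790M tumours (-1.71, adjusted p = 0.00126). Their mean level was 9.39 to 9.95 in normals, 10.86 to 11.61 in L858R, 8.77 to 10.81 in L858R+T790M and 9.26 to 10.04 in T790M arrays. The labelled tissue was borne out by high lung markers in the FVB and mixed-strain normals. In that order, the club cell gene Scgb1a1 read 14.70 and 14.64, and the type 1 cell gene Ager 14.13 and 14.38. As for RNA quality, the Gapdh 3′ minus 5′ value averaged -0.15 and -0.26 in the FVB and mixed-strain normals. In the tumour groups it averaged -0.15, -0.12 and -0.18. The mixed-strain normals (-0.31 to -0.22) did not overlap the FVB normals (-0.20 to -0.08), and L858R tumours ran from -0.24 to -0.07. The beta-actin value averaged 0.504 and 0.438 in the normals and 0.505, 0.542 and 0.574 in the tumours. The part of RNA quality in the results was not tested.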

How the data were processed

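The deposited log2 probe set values are RMA summaries by the authors, according to the submitters' processing notes, and the version of RMA is not given in the sources used here. RMA puts all arrays on one scale, so a value is relative to the other probe sets of its array. Arrays hold no counts, and the number of arrays, 4 or 5 per group, limits the precision. Of 45101 probe sets, 64 controls were excluded, and no filter on low values was applied, so all 20 member probe sets were tested. Symbols came from the platform annotation, updated by Entrez identifier.

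A model of 5 group means (limma 3.58.1, R 4.3.3, eBayes with a trend) was fitted and tested two-sided, with Benjamini-Hochberg adjustment over 45037 probe sets, or over 18193 genes (brightest probe set each) for lists and alike genes. Each tumour group was set against the normals of its strain label. The code was also checked on simulated data. The members and lists were chosen with earlier results of these data known. Named genes are the members, genes of the lists, and the 8 most alike genes over the 14 tumours. Alternatives were centring, renewed quantile normalization, other probe set rules, array weights, no trend, smaller fits, all normals together, a direct difference, a replicate block, other thresholds and leaving out each array.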

Additional observations from a re-analysis of the deposited data

Results flagged for a closer look

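In 10 of the 100 sets of values (20 probe sets in 5 groups) 1 array stood far from the others of its group by Dixon's test, where chance gives about 5, or 1 in 20. These tests are not independent, since the same arrays recur. L858R+T790M replicate 5 was low for Sftpa1 1422334_a_at (14.46, next 14.67), Sftpd (14.23, next 14.36), Lpcat1 1424459_at (13.21, next 13.70) and Slc34a2 (13.98, next 14.34). L858R+T790M replicate 2 was high for Abca3 1451869_at (10.01, next 9.15). L858R replicate 2 was low for the collectins, with Sftpa1 1422334_a_at at 14.24 (next 14.59) and Sftpd at 13.82 (next 14.32), and L858R replicate 4 was low for Slc34a2 (14.13, next 14.31). T790M replicate 4 was low for Sftpb (13.90, next 14.33) and Sftpd (13.67, next 14.19). None of the 10 sets was from normal lungs.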

How the results depend on the processing

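Counts of member probe sets called were 18, 17 and 15 in L858R, L858R+T790M and T790M tumours against normals. They were 9, 9 and 7 of 10 genes with the brightest probe set per gene, 10, 9 and 8 of 10 genes with the median over probe sets, and 6, 3 and 4 probe sets with a change of at least 2-fold. Leaving out each array gave 17 to 18, 17 to 18 and 14 to 17. Between L858R+T790M and T790M tumours, and between L858R and T790M tumours, it gave 0 to 1, the 1 being Abca3 1451869_at without L858R+T790M replicate 2. The direct difference of L858R from T790M tumours, normals not subtracted, called 1 (Abca3 1451869_at, -0.66), and array weights called 3 between the normal sets. Shares of all probe sets are not given for these alternatives. Sftpc 1418639_at changed sign with the median over probe sets, to -0.37 (adjusted p = 0.00721), -0.18 (adjusted p = 0.186) and -0.14 (adjusted p = 0.288), where it is averaged with the discordant dim probe set, and in T790M tumours without replicate 3, leaving out each array giving -0.0115 to 0.0235. Of 60 probe set results, 49 kept their direction and call under the alternatives of scaling, model, probe set rule and arrays left out. The stricter thresholds, which only narrow the calls, are not counted there.

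Groups share replicate numbers, but same-numbered arrays did not all deviate together: between L858R+T790M and T790M tumours r was 0.0154 to 0.42, over 0.1 in 4 of 5 pairs, and between L858R tumours and mixed-strain normals -0.296 to 0.0114. With the replicate block the counts were 18, 17 and 15, and 0 in the other 4 comparisons. Bright member probe sets sat near the top of the scale, and 2 dim ones lay below every array's median. The part of signal level in these results was not tested.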

Other observations

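Airway and stromal lists, read beside the surfactant genes, went the other way. Ciliated cell markers were called lower for 6 of 6 in each tumour group, with medians of -1.87, -2.18 and -1.69, and Foxj1, the factor of motile cilia, was at -1.58, -1.47 and -1.20. Club cell markers were called lower for 5, 7 and 4 of 8, with Scgb3a2 at -2.65, -2.82 and -2.24. Fibroblast markers were called lower for 7, 5 and 5 of 8, with Tcf21 at -4.28, -3.14 and -3.25. The collagen genes Col1a1, Col1a2 and Col3a1 were not called in L858R+T790M tumours (0.75, -0.18 and -0.45). Nor were they called in T790M tumours (0.45, -0.37 and -0.35).

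The spread between arrays, with group means subtracted, was wider in tumours than in normals for 19 of the 20 member probe sets, beside 85.5% of all probe sets, with Lpcat1 1420293_at the exception. The median SD of the members was 0.266 in tumours and 0.147 in normals, and that of all probe sets 0.18 and 0.112.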
